A study of Mus musculus with 179 samples.

Results

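The 9 genes described here encode subunits of activator protein 1 (AP-1) and of related basic leucine zipper transcription factors: Fos, Fosb, Fosl1 and Fosl2 of the Fos family, Jun, Junb and Jund of the Jun family, and Atf3 and Maff of the ATF and small MAF families. They were taken by name from the 32100 genes counted in the series' single cells, but with earlier results of these data known. The shares over all genes given below are thus not set against gene lists chosen blind to these data. All cells form 1 group: cells from the exocrine pancreas of wild-type C57BL6 mice, labelled as acinar cells, which had been grown in matrigel as 3D organoids for 9 days. The method was Smart-seq3, in which each captured RNA molecule is tagged with a unique molecular identifier (UMI), within scNMT-seq, whose methylation and accessibility layers were not analysed here. The labels name no treatment, animal or culture batch, so cells are not replicates, no test was run and every value below is a description of these cells.

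AP-1 is not one protein but a set of dimers. Fos proteins bind DNA only together with a partner such as a Jun protein, Jun proteins can also pair with each other, and Atf3 can pair with Jun proteins. Many of these genes are immediate early genes, transcribed soon after a growth factor or stress signal reaches the cell through MAP kinases. YAP, a co-activator that works through TEAD DNA-binding proteins, has Ankrd1, Ccn1 and Ccn2 among its best known targets, and in human cancer cell lines YAP, TEAD and AP-1 are known to occupy many of the same enhancers.

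The cells held 3258 to 329522 UMIs (median 165267) from 4691 to 929032 counted reads (median 362296), and mitochondrially encoded genes took 0.216 to 36.6% of UMIs (median 1.01%). No 2 cells had identical counts. Defining acinar factors were close to absent, with pooled levels of 1.04 CPM (UMIs per 1000000 UMIs) for Ptf1a, 1.69 CPM for Rbpjl and 1.98 CPM for Bhlha15. The 13 acinar markers summed to a median of 126.03 CPM per cell, against 7885 CPM for 7 duct markers and 11282 CPM for 8 epithelial markers, so the cells are called organoid cells here. One cell, Acinar52, stood apart with 232845 CPM of acinar markers. The 10 fibroblast and stellate markers reached 1000 CPM in 7 cells, and the 7 endothelial markers had a pooled 29.8 CPM. The immune list had a median of 478 CPM, of which 98.8% of UMIs were from Cd14.

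AP-1 transcripts were abundant and differed widely in level. Together the 9 genes held 1401 CPM of the pooled UMIs (95% Poisson interval 1387 to 1415, counting error only, as for all intervals here). The median cell had 1202 CPM, with quartiles of 842 and 1758 CPM and a highest value of 4091 CPM. Junb, Fos and Jun supplied 43.9%, 20.8% and 15.4% of those UMIs, and Atf3 a further 8.65%. The same 3 leading genes thus carried most of the family's transcripts, while Maff (3.92%), Fosl2 (3.06%), Jund (2.02%), Fosb (1.61%) and Fosl1 (0.716%) were minor parts. A UMI stands for a molecule whatever its length, so levels are set side by side without dividing by gene length.

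**Figure D1:**
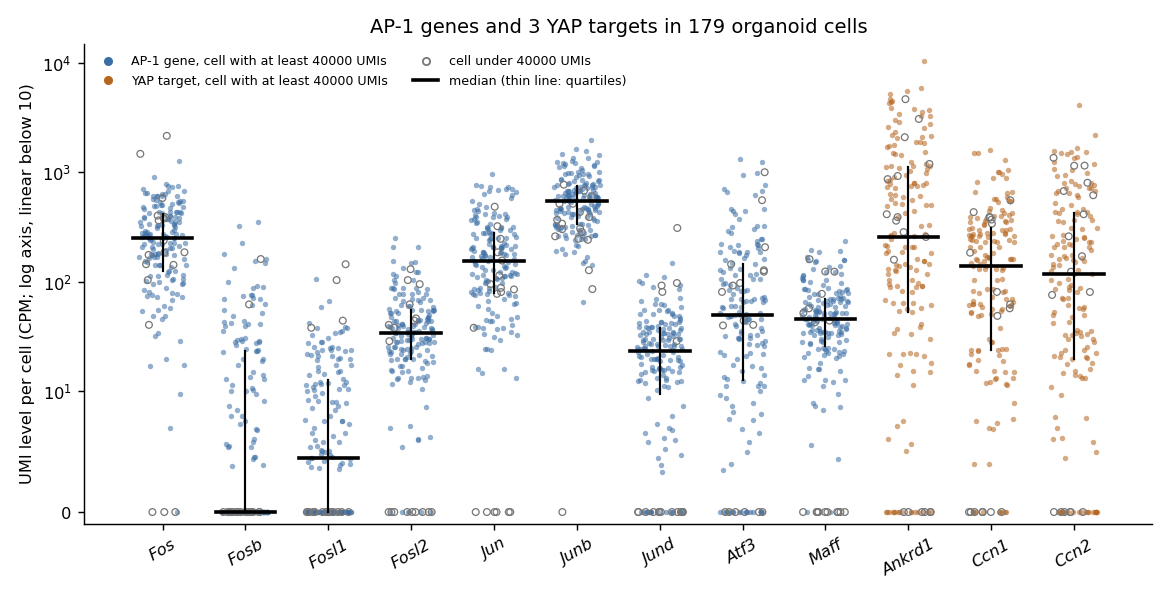
Level of each AP-1 gene and of the YAP targets Ankrd1, Ccn1 and Ccn2 in every cell (1 point a cell, CPM on a log axis that is linear below 10), with open circles for the 18 cells under 40000 UMIs, thick bars for medians and thin lines for quartiles. Junb lies highest among the AP-1 genes with a median of 544 CPM, while Atf3 and the 3 YAP targets spread widely, from 0 to over 1000 CPM.

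Among the Fos family, Fos led and Fosl1 was lowest. Fos (chr12:85473890-85477273 of GRCm38, 4 exons), which brings a strong activating domain to the dimer, had a pooled level of 291 CPM (284.7 to 297.4). Per cell it ran from 0 to 2161 CPM with a median of 252 CPM and quartiles of 124.9 and 415 CPM. The top value came from a shallow cell, Acinar106, with 28 Fos UMIs of 12956, and among the cells with at least 40000 UMIs, all but 18, the highest were 1262 CPM in Acinar61 and 898 CPM in Acinar35. Fos was thus a gene of nearly all cells, and 97.8% had a UMI of it.

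Fosl2 (chr5:32135801-32157842, 4 exons), which encodes Fra-2, had a pooled 42.9 CPM (40.5 to 45.4), a median of 33.8 CPM and a highest value of 248.8 CPM in Acinar139. Fosb (chr7:19302696-19310051, 5 exons), a close relative of Fos, had a pooled 22.6 CPM (20.9 to 24.4), a median of 0 and a highest value of 355 CPM in Acinar16, followed by 320 CPM in Acinar83. Fosl1 (chr19:5447547-5455946, 4 exons), which encodes Fra-1, had a pooled 10.03 CPM (8.88 to 11.3), a median of 4.48 CPM and, among the deeper cells, a highest value of 104.8 CPM in Acinar165. Fosb was concentrated in few cells: 48.5% of its UMIs came from 10 cells, against 20.9% for Fos, 20.4% for Fosl2 and 29.7% for Fosl1.

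The Jun family was dominated by Junb. Junb (chr8:84974484-84978718, 2 exons), a Jun protein with weaker activating function than Jun on many promoters, had a pooled 614 CPM (605 to 624) and quartiles of 333 and 751 CPM around a median of 544 CPM. Its highest cells were Acinar30 with 1982 CPM and Acinar84 with 1652 CPM, and 99.4% of cells had a UMI. Jun (chr4:95049034-95052222, a single exon), the founding member and the main partner of Fos, had a pooled 216 CPM (210 to 221), a median of 155.8 CPM and quartiles of 78.4 and 281 CPM. Jun was highest in Acinar43 with 961 CPM and in Acinar35 with 768 CPM, so the leading Jun cells were not the leading Junb cells.

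Jund (chr8:70698949-70700616, a single exon), which is often expressed in resting cells, had a pooled 28.2 CPM (26.3 to 30.3) and a median of 22.9 CPM. Its highest value of 310 CPM, in Acinar73, rested on 6 UMIs of 19385, and the highest deeper cell was Acinar98 with 146.5 CPM. From the read table in place of UMIs, Jund had 17.3 CPM, more than 1.5 times lower, and then stood below Fosb at 19.3 CPM.

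Atf3 had the highest ratio of variance to mean of the family. Atf3 (chr1:191170296-191218039, up to 5 exons), a stress-induced factor of the ATF/CREB family, had a pooled 121.2 CPM (117.2 to 125.4) but a median of only 49.2 CPM, with quartiles of 12.7 and 144.4 CPM. It reached 1317 CPM in Acinar176 and 1236 CPM in Acinar16, and 10 cells held 36.3% of its UMIs. Maff (chr15:79346621-79359076, up to 3 exons), a small MAF protein without an activating domain of its own, had a pooled 54.9 CPM (52.2 to 57.7), a median of 45 CPM and quartiles of 25.8 and 69.8 CPM. Its highest cell was Acinar145 with 233 CPM, so Maff stayed within a narrower range than Atf3 at a similar median.

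In pooled level the order was Junb, Fos, Jun, Atf3, Maff, Fosl2, Jund, Fosb, Fosl1. The counting intervals of neighbours in this order did not overlap, but the quartile ranges over cells overlapped for every pair of neighbours. By the median cell, Fosl1 stood above Fosb. Exon bases on the opposite strand are shared by Junb with Prdx2 (which had 17422 UMIs), by Fosl1 with Ccdc85b (1163 bases; 851 UMIs), by Jun with Junos (232 bases; 233 UMIs) and by Jund with Gm11175 (877 bases). The sources used here do not say whether counting used strand, so these levels, Junb and Fosl1 above all, may hold reads of the partner.

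To compare cells of unlike depth, each cell with at least 40000 UMIs was thinned to 40000 UMIs, at which 1 UMI equals 25 CPM. After thinning, Junb had a UMI in 100% of cells, Jun in 96.3%, Fos in 95.03%, Fosl2 in 81.4%, Maff in 80.1%, Atf3 in 73.3%, Jund in 56.5%, Fosb in 32.3% and Fosl1 in 27.95%. At full depth 48 cells had a UMI of all 9 genes, 57 of 8 and 40 of 7, and only Acinar115, the shallowest cell with 3258 UMIs, had none of them. Thinning cut the number with all 9 genes to 6, so most gaps in the rarer genes cannot be told apart from sampling at this depth.

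By the ratio of variance to mean, cell-to-cell spread exceeded counting noise most for Atf3, Junb, Jun, Fos and Fosb. That ratio tends to rise with a gene's abundance, so it does not rank genes by relative spread. The upper quartile of CPM over the lower one gave another order among AP-1 genes whose lower quartile was above 0. Atf3 was widest at 11.4, but Junb was narrowest at 2.25, below Maff at 2.70 and Jund at 3.88. The ratio of variance to mean of the thinned counts, fibroblast-rich cells included, which is 1 for pure counting, was 15.9 for Atf3, 8.81 for Junb, 6.82 for Jun and 6.06 for Fos. The values of these 4 genes were above 96.7%, 94.3%, 92.6% and 91.4% of the 7278 genes that averaged 1 thinned UMI or more. Fosb, under that mean, had a ratio of 5.18, and counting alone would give 19.3% of its variance. Maff, Fosl2 and Jund had ratios of 1.81, 1.58 and 1.53, close to the 1.66 of the median gene. Counting alone would give 6.28% of the variance of Atf3, 11.4% of that of Junb, 14.7% of that of Jun and 16.5% of that of Fos. It would give 55.2% for Maff, 63.4% for Fosl2, 65.2% for Jund and 80.97% for Fosl1, which leaves little of the last for a correlation to rest on.

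Within the family, Fos, Jun and Junb moved together, Atf3 and Fosb joined some of them, and Fosl1, Jund and Maff reached the same measure with no other AP-1 gene at this depth. Spearman's rho was computed over the thinned cells (77 with a number up to 96 in their name and 78 with a higher one), without the 6 fibroblast-rich cells of that depth, and a pair was counted as moving together at a rho of 0.3 or more. Of the 36 pairs of AP-1 genes 8 did so (22.2%), against 1.15% of the 26060590 pairs among all genes that averaged 1 UMI or more. The median rho was 0.19 over the AP-1 pairs and 0.0078 over all pairs, and 32 of 36 AP-1 pairs were above 0. Since rarer genes give weaker rho, the 4 AP-1 genes with a mean of at least 5 UMIs were also set apart: 4 of their 6 pairs reached 0.3, against 5.6% of pairs of genes of that abundance. Fosb, with a mean of 0.981 thinned UMIs, and Fosl1, with 0.381, fell under the mean of 1 and count as sparse. They would not enter the pairs of all genes, and without them 5 of 21 AP-1 pairs reached 0.3 (23.8%, median rho 0.25).

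**Figure D2:**
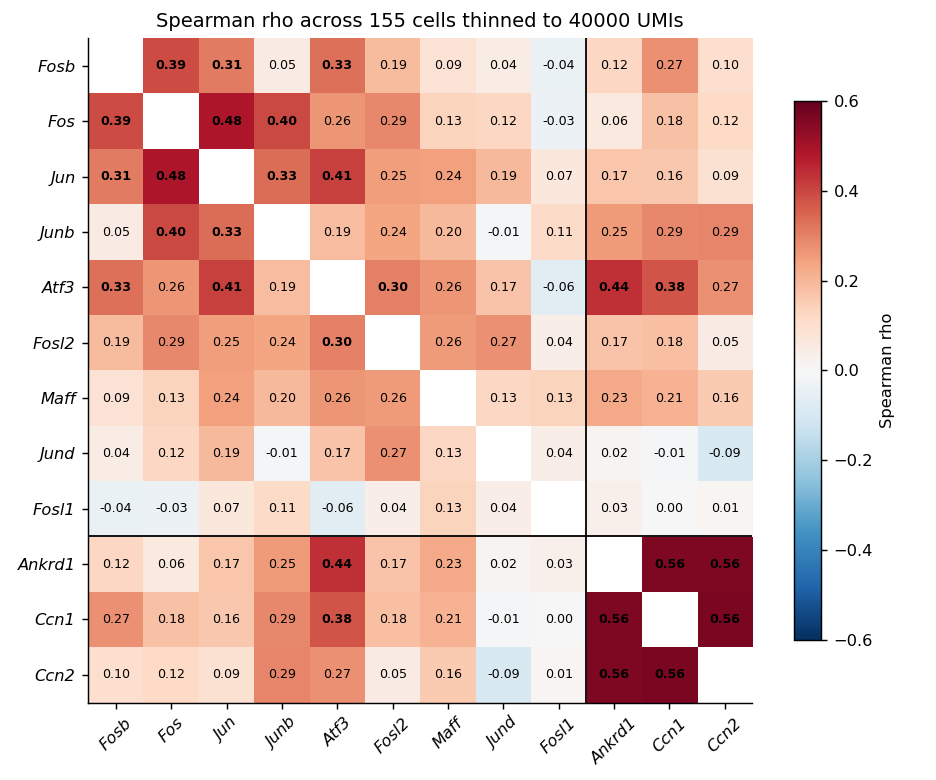
Spearman rho for every pair of AP-1 genes and YAP targets (above and left of the lines, AP-1 genes; below and right, Ankrd1, Ccn1 and Ccn2) over the cells thinned to 40000 UMIs; bold marks 0.3 or more. The strongest AP-1 pair is Fos with Jun at 0.48, and Atf3 is the AP-1 gene with bold values in the YAP target columns at this depth.

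Fos and Jun, the classical dimer partners, had the highest rho of the family, 0.48. Of the 7219 other genes, Jun was the closest to Fos and Fos was the closest to Jun. Junb was the second closest gene to Fos, with a rho of 0.40, and had a rho of 0.33 with Jun. The 3 abundant genes therefore formed a triangle in which every side passed 0.3. In cells whose name carries a number up to 96 the rho of Fos with Jun was 0.54, against 0.42 in the others. The numbers are only names, and whether they follow plates is not stated.

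Atf3 was tied to Jun with a rho of 0.41 and to Fos with 0.26, which did not reach 0.3. Fosl2 had a rho of 0.30 with Atf3, just past the mark, and 0.29 with Fos, just short of it. The Fosl2 value with Atf3 was 0.17 in cells numbered up to 96 and 0.42 in the others, and passed in only 4 of the 13 other settings fixed for this comparison. Fosb had a rho of 0.39 with Fos, 0.33 with Atf3 and 0.31 with Jun, but 0.051 with Junb. Fosb was detected in only 52 thinned cells, so most cells are tied at 0 in its ranks.

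Maff came closest to Atf3 (0.26) and Fosl2 (0.26), and Jund to Fosl2 (0.27). These were near misses that turned on the settings: over the 13 others, Maff reached 0.3 with Atf3 in 7 (up to 0.42), with Junb in 7 (up to 0.47) and with Jun in 6 (up to 0.44), and Jund with Fosl2 in 6. Jund had a rho of -0.014 with Junb, the other side of the Jun family. Fosl1 had rho between -0.062 with Atf3 and 0.13 with Maff. No gene of the 7220 compared reached 0.3 with Fosl1 (0.0%), so its lack of partners is not particular to AP-1 genes.

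Single cells showed how the top values were combined. Acinar16, with the most Fosb, also had 1236 CPM of Atf3, 648 CPM of Fos and 208 CPM of Fosl2. Acinar83, second for Fosb, had 669 CPM of Jun and 675 CPM of Fos but 35.5 CPM of Atf3. Acinar43, the leading Jun cell, had 955 CPM of Atf3 and 458 CPM of Fos. High Jun thus occurred both with and without high Atf3.

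**Figure D3:**
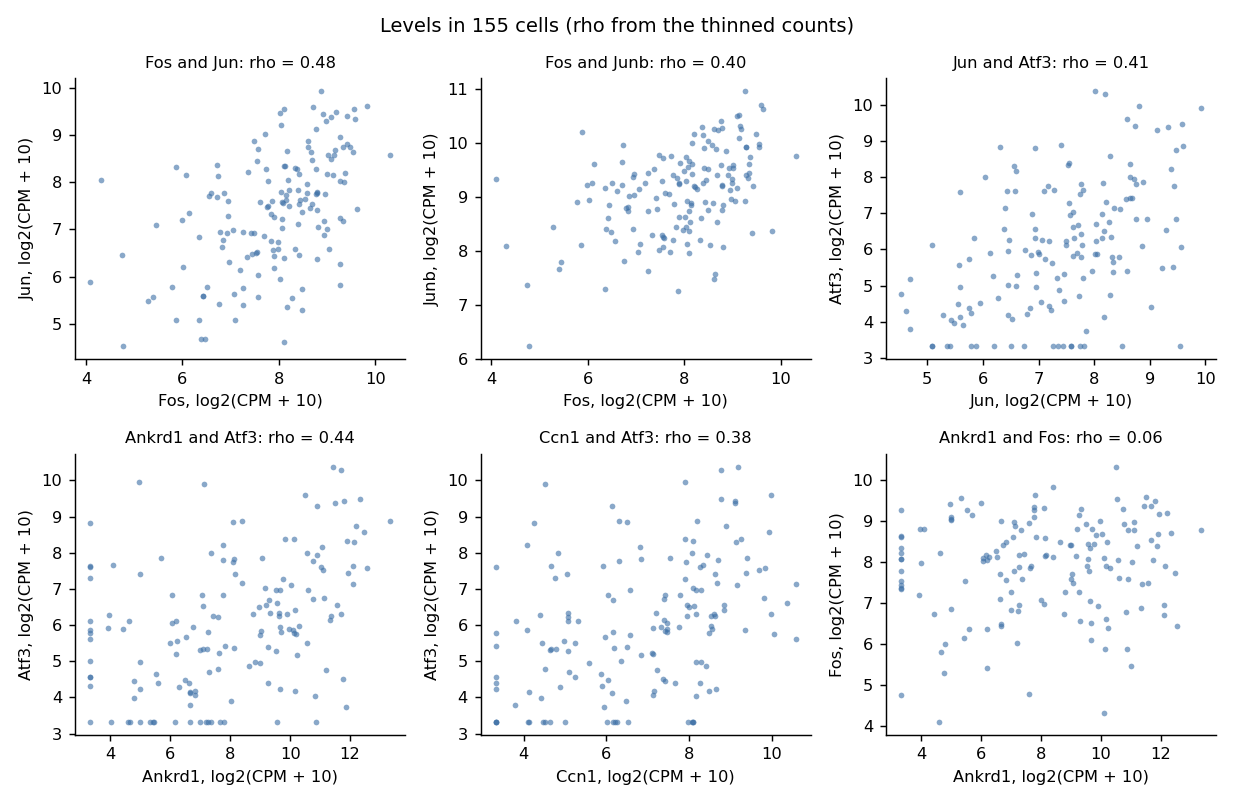
Level of one gene against another in those cells, on the log2(CPM + 10) scale, 1 point a cell. Fos with Jun, Fos with Junb and Jun with Atf3 rise together (rho of 0.48, 0.40 and 0.41), Ankrd1 and Ccn1 rise with Atf3 (0.44 and 0.38), and Fos shows almost no relation to Ankrd1 (0.06).

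The 3 YAP targets were strongly variable. Ankrd1, a nuclear ankyrin-repeat protein, had a pooled 944 CPM, a median of 256 CPM and 10414 CPM in its top cell, Acinar87. Ccn2, the matricellular protein CTGF, had a pooled 313 CPM and a median of 118.5 CPM. Ccn1, the matricellular protein CYR61, had a pooled 223 CPM and a median of 137.9 CPM. Among themselves their pairs had rho of 0.56 to 0.57 in the same cells.

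Atf3 had the highest rho of the AP-1 genes with Ankrd1 and Ccn1. Its rho was 0.44 with Ankrd1, 0.38 with Ccn1 and 0.27 with Ccn2. Ankrd1 had rank 4 of 7219 genes by likeness to Atf3. Over all genes, 3.09% reached 0.3 with Ankrd1, 0.942% with Ccn1 and 1.58% with Ccn2. Of the 27 pairs of an AP-1 gene and a YAP target, the 2 with Atf3 were those at 0.3 or more, and the median was 0.16.

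Junb came next, at 0.25 with Ankrd1, 0.29 with Ccn1 and 0.29 with Ccn2. Maff followed with 0.23, 0.21 and 0.16 in the same order of targets. In other settings more pairs passed: over 13, Maff reached 0.3 with Ankrd1 in 7 (up to 0.39), Fosb with Ccn1 in 5 and Junb with Ccn1 in 3. Fos had 0.059, 0.18 and 0.12, and Jun had 0.17, 0.16 and 0.091. The classical pair that led the AP-1 correlations thus lay below Atf3 on all 3 targets, a difference that was not tested. Fosl2 had 0.17, 0.18 and 0.049, and Jund had 0.015, -0.014 and -0.089. The sparse genes had 0.12, 0.27 and 0.10 (Fosb) and 0.031, 0.0038 and 0.012 (Fosl1).

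The Atf3 values held for Ankrd1 and Ccn1 at low and high cell numbers. With Ankrd1 the rho was 0.35 in cells numbered up to 96 and 0.53 in the others, and with Ccn1 it was 0.30 and 0.43. Ccn2 did not behave so evenly: with Junb it had 0.45 in cells numbered up to 96 and 0.13 in the others, and with Atf3 0.38 and 0.15. The number of genes detected per thinned cell moved with Atf3 (rho 0.33), Ankrd1 (0.38) and Ccn2 (0.30). Given that number, the partial rho of Atf3 was 0.36 with Ankrd1 and 0.33 with Ccn1, and that of Fos with Jun was 0.47.

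Cells with much Atf3 differed in their YAP targets. Acinar16 had 3279 CPM of Ankrd1, 1529 CPM of Ccn2 and 428 CPM of Ccn1 beside its 1236 CPM of Atf3. Acinar176, with the most Atf3, had 2762 CPM of Ankrd1. Acinar43, with 955 CPM of Atf3, had only 129.05 CPM of Ankrd1 and 12.9 CPM of Ccn1. In the other direction, Acinar142 had 5991 CPM of Ankrd1 with 76.02 CPM of Fos and 38.01 CPM of Jun.

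The promoters of the genes that moved together are shown next, from RefSeq on build GRCm38.p6, because Fos, Jun, Junb and Atf3 carry the AP-1 pattern, Ankrd1 and Ccn1 are the YAP targets that moved with Atf3, and Maff holds a full cyclic AMP response element (CRE). The table held 8 of the 9 AP-1 genes and 2 of the 3 YAP targets, without Fosl1 and Ccn2. Each line gives the 250 bases upstream of the annotated start, on the gene's strand, with motif matches in capitals. The regions are chr12:85473640-85473889 (plus strand) for Fos, chr4:95052223-95052472 (minus) for Jun, chr8:84978749-84978998 (minus) for Junb, chr1:191183334-191183583 (minus) for Atf3 and chr15:79347270-79347519 (plus) for the second of 3 Maff starts. They are chr19:36119845-36120094 (minus) for Ankrd1 and chr3:145649986-145650235 (minus) for Ccn1.
Fos: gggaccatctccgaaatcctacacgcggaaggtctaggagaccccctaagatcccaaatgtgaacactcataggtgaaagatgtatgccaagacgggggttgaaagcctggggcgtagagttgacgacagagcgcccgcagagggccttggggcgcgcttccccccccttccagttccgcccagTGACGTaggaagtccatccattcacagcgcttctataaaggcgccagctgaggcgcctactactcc
Jun: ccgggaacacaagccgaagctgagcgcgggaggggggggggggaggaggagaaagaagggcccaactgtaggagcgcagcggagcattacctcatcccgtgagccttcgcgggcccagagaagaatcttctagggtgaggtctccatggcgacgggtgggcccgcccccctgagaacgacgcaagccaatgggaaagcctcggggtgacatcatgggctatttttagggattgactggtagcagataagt
Junb: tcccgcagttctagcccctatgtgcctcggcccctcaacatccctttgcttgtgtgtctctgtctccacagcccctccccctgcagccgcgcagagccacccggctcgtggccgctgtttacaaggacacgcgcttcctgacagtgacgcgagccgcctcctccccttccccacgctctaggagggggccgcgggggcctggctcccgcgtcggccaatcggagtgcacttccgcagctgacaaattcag
Atf3: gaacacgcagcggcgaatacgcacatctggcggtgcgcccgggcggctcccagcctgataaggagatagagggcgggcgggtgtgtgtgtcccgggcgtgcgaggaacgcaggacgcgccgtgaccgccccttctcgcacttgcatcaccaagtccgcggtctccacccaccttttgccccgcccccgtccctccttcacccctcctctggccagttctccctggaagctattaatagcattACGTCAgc
Maff, second start: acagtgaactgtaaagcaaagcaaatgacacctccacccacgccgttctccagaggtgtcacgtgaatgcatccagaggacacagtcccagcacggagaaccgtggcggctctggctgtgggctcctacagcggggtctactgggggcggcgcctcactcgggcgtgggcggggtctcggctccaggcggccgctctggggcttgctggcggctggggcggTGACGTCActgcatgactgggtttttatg
Ankrd1: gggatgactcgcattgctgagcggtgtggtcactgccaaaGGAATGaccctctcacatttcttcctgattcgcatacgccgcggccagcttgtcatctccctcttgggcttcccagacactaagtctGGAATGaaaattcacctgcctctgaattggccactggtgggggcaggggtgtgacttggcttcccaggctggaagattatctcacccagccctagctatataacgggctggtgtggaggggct
Ccn1: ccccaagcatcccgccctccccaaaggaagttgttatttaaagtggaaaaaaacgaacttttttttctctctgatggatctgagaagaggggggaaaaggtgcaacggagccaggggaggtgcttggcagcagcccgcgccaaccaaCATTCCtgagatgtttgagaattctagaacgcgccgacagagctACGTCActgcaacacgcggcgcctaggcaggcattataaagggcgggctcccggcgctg

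Both strands of these windows, and of the first 50 bases after each start, were searched for the CRE half-site ACGTCA, which reads TGACGT on the other strand, the full CRE TGACGTCA that contains it, the AP-1 site TGAGTCA, which reads TGACTCA on the other strand, the TEAD core GGAATG, which reads CATTCC, and the CArG box by name, which serum response factor binds. Counted from the start, with bases before it negative, Fos held a CRE half-site centred at -63.5, Atf3 one at -5.5 and Ccn1 one at -56.5, while Maff held the full CRE at -25.5 from its second start. Ankrd1 held 2 TEAD cores, centred at -207.5 and -120.5, and Ccn1 held 1 at -100.5. Jun, Junb, Jund, Fosb and Fosl2 held none of the motifs. The Jund window, chr8:70697489-70697738, belongs to a RefSeq start upstream of the Jund gene as counted here (chr8:70698949-70700616). Of 32851 promoters of 27025 genes, 7.51% held the half-site, 1.79% the full CRE, 5.2% the AP-1 site, 14.7% the TEAD core and 1.63% the CArG box. A match is a description of letters and not a shown binding site, and a window without one says nothing of the factor.

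**Figure D4:**
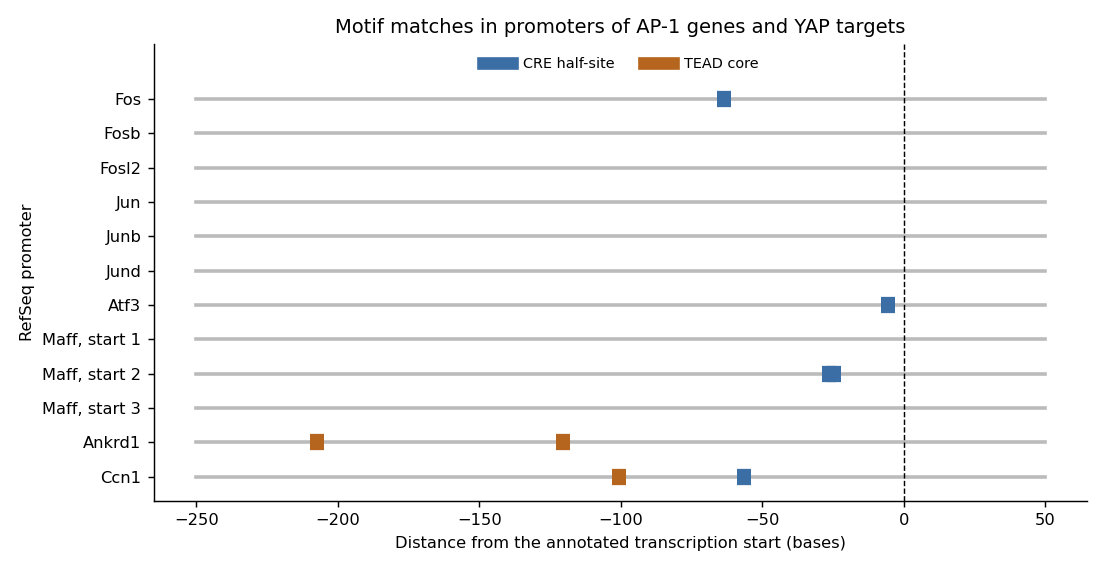
Matches to the CRE half-site and the TEAD core in RefSeq promoters of the AP-1 genes and YAP targets (grey line: 250 bases before to 50 after the annotated start, at 0). CRE half-sites lie in Fos, Atf3, Ccn1 and the second Maff start, where 2 overlap as a full CRE, and TEAD cores lie in Ankrd1 and Ccn1.

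Some of the other early response genes moved with Fos, Jun, Junb and Atf3. Of 16 such genes 12 averaged 1 thinned UMI or more. With Fos 4 of the 12 reached 0.3 (median 0.20), against 0.332% of all genes: the zinc finger factor Egr1 (0.38), the RNA-decay factor Zfp36 (0.34), the Kruppel-like factor Klf10 (0.33) and Ier2 (0.31). With Junb 7 of 12 did so (median 0.35), against 1.18% of all genes, and with Jun 6 of 12 (median 0.27), against 1.79%. Egr1 had 0.45 with Junb, 0.31 with Jun and 0.22 with Atf3. With Atf3 4 of 12 reached 0.3 (median 0.20), against 1.66%, and with Maff 1 did, Klf6 at 0.33 (median 0.085), against 0.513%. Fosl1 again had none (median 0.055). Not all of the list moved so: the Kruppel-like factor Klf4 had -0.10 with Junb, -0.0058 with Jun and -0.0050 with Atf3.

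**Figure D5:**
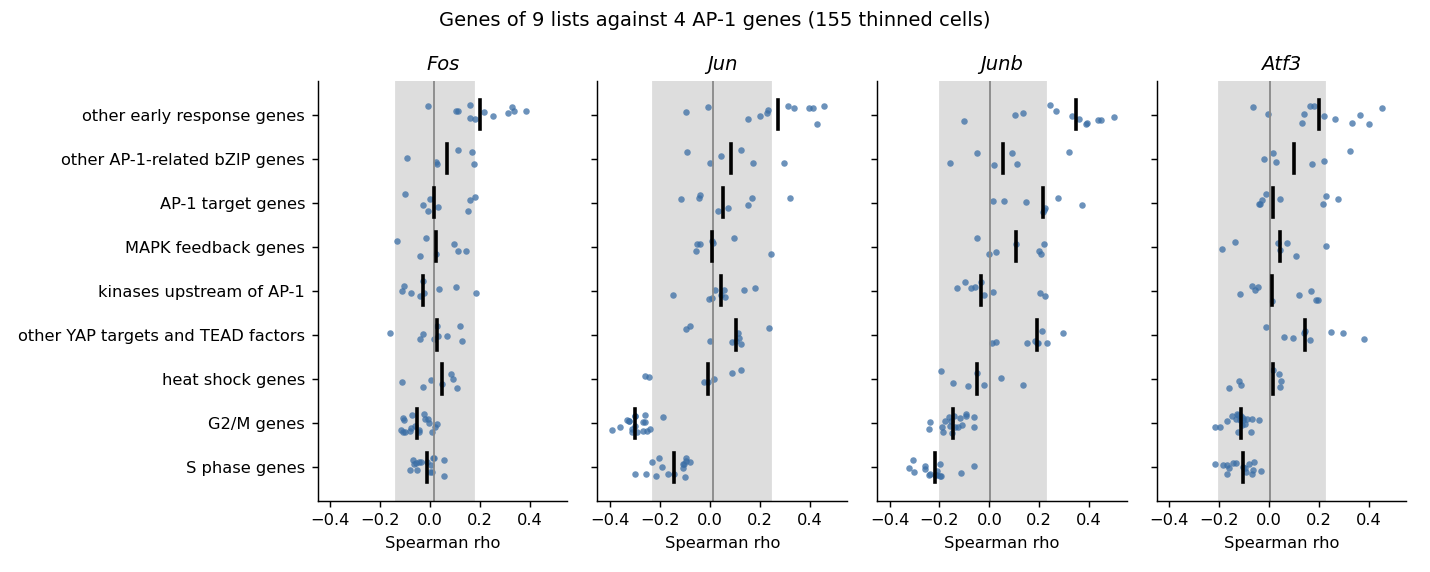
Spearman rho of each gene of 9 lists with Fos, Jun, Junb and Atf3 over the thinned cells (points: genes that averaged 1 UMI or more; black bars: list medians; grey band: 5th to 95th percentile of all genes; grey line: median of all genes). Early response genes have medians of 0.20, 0.27, 0.35 and 0.20, with single genes at or below 0, and G2/M genes lie to the left for Jun with a median of -0.2985.

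The genes most like each abundant AP-1 gene were named by rank among all genes. For Fos they were Jun, Junb, Egr1, and the transcription factors Nfib (0.38) and Ehf (0.37); the lowest were Ccng2 (-0.36), Abhd12 (-0.32) and Angptl4 (-0.28). For Jun they were Fos, the tight-junction gene Cldn4 (0.47), Klf6 (0.46), Ier3 (0.43) and the nuclear receptor corepressor Nrip1 (0.42). For Junb they were Ier3 (0.50), Egr1 (0.45), Cldn4 (0.44), Klf6 (0.43) and Arl4c (0.43). Ier3, Klf6 and Cldn4 thus ranked in the top 5 of both Jun and Junb.

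For Atf3 the nearest genes were the chemokine Cxcl16 (0.47), the NF-kB subunit Rela (0.46), the MAP kinase phosphatase Dusp1 (0.45), Ankrd1, and Ppp1r15a (0.42), a stress-induced phosphatase subunit. The neighbourhoods shared genes further down: Dusp1 had 0.40 with Jun and 0.39 with Junb, and Atf3 had 0.40 with Klf6 and 0.39 with Cldn4. Among the lowest for Atf3 were the fatty-acid-binding gene Fabp5 (-0.39) and Mgst3 (-0.39).

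The G2/M genes that passed the mean all had a negative rho with Jun, but the lowest genes of all were not among them. Of all genes, the lowest with Jun were the translation factor Eif5a (-0.41), the tubulin Tubb4b (-0.40) and cytochrome c, Cycs (-0.40). For Junb the lowest were Kpnb1 (-0.40), Rundc1 (-0.39) and again Cycs (-0.38). Of 18 G2/M genes that passed the mean, 7 had a rho of -0.3 or less with Jun (median -0.2985), against 1.11% of all genes, among them Top2a at -0.31, while Cdk1 had -0.27, Ccna2 -0.27 and Aurkb -0.26. The same list had medians of -0.15 with Junb, -0.11 with Atf3 and -0.053 with Fos, and none of its genes reached -0.3 with these.

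S phase genes stood lowest with Junb: 3 of 15 had a rho of -0.3 or less (median -0.22), against 0.443% of all genes, while with Jun none did (median -0.14). Over cells, the summed G2/M genes had a rho of -0.36 with Jun and -0.067 with Fos, so the closest pair of AP-1 genes stood unlike to the cell cycle genes; the difference was not tested. Given the summed G2/M and S phase genes, the partial rho of Fos with Jun was 0.49.

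None of the upstream kinases and MAPK feedback genes listed here that passed the mean reached 0.3 with the AP-1 genes compared. Few of the listed targets did. Over all genes the share at 0.3 was 0.332% with Fos, 1.79% with Jun, 1.18% with Junb, 1.66% with Atf3, 0.513% with Maff and 0.0% with Fosl1. An absence among so few genes is thus near those shares. Of 9 kinases that passed, with Mapk3, Mapk14, Map2k1 and Map3k1 among them, none reached 0.3 with Fos, Jun, Junb, Atf3, Maff or Fosl1, and of 7 MAPK feedback genes, such as Spred1, Dusp10, Etv5 and Dusp5, none did. With Fos the medians were -0.029 for the kinases and 0.025 for the feedback genes, against 0.014 for all genes. The MAP kinase phosphatase gene Dusp1 was listed with the early response genes instead. It had 0.45 with Atf3, 0.40 with Jun and 0.39 with Junb, but 0.22 with Fos, 0.20 with Maff and 0.055 with Fosl1. RNA levels of kinases do not report their activity.

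Of 8 AP-1 target genes that passed, none reached 0.3 with Fos, and their median was 0.016, against 0.014 for all genes. The highest were the growth factor gene Hbegf (0.18), the matrix protease gene Mmp7 (0.16), the hyaluronan receptor gene Cd44 (0.15) and the urokinase receptor gene Plaur (0.031). Hbegf had 0.37 with Junb, the list's 1 gene at 0.3, against 1.18% of all genes. The list's median with Junb was 0.22, against 0.0045 for all genes. Cd44 had 0.32 with Jun, again 1 gene, against 1.79% of all genes (median 0.051, against 0.011). The median of the target list was thus higher with Junb than with Fos, a difference that was not tested.

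Of 6 other AP-1-related leucine zipper genes that passed, none reached 0.3 with Fos (median 0.070), against 0.332% of all genes. With Junb (Mafk at 0.32), Atf3 (Atf7 at 0.32) and Maff (Mafg at 0.32) 1 each did, against 1.18%, 1.66% and 0.513%. Of 9 other YAP targets and TEAD factors that passed, none reached 0.3 with Fos (median 0.029) or Junb (median 0.19). With Atf3 1 did, the angiomotin-like gene Amotl2 at 0.38 (median 0.14), against the same 1.66% of all genes. Amotl2 also had 0.31 with Maff. Of 10 heat shock genes, often high in freshly dissociated cells, 7 passed the mean. None of these reached 0.3 with any of Fos, Jun, Junb, Atf3, Maff and Fosl1. Hspb1, under the mean at 0.639 thinned UMIs, had 0.32 with Junb and 0.28 with Jun. The sum of all 10 had rho between -0.19 and 0.0051 with the 9 AP-1 genes. Whether dissociation had a part in the AP-1 levels or correlations was not tested.

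Some markers of cell type also moved with Jun. Of 8 epithelial markers 4 reached 0.3 with Jun (median 0.20), against 1.79% of all genes. Cldn4 was highest, with Cdh1 at 0.42, Cldn3 at 0.36 and Epcam at 0.34, while Cldn7 had -0.21, Ezr -0.045, Krt8 0.060 and Krt18 0.027. With Junb and with Atf3 1 of the 8 reached 0.3, against 1.18% and 1.66% of all genes, and with Fos none, against 0.332%. Among duct markers, Spp1 had 0.32 with Jun and Krt7 had -0.32. Cd14, which made up nearly all of the immune list, had 0.41 with Jun, 0.33 with Junb and 0.29 with Fos. None of the 7 acinar markers that passed reached 0.3 with Fos, Jun, Junb or Atf3. The part of these markers in the AP-1 correlations was not tested.

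All 7 fibroblast-rich cells, those with at least 1000 CPM of the marker sum (the next cell had 879.6 CPM), had less Fos than the median of the other cells. Fos ran from 0 to 202 CPM in them with a median of 142.06 CPM, against a median of 258 CPM and a range of 0 to 2161 CPM in the other cells, so the groups overlapped. The pooled Fos level was 98.7 CPM (80.9 to 119.2) in the fibroblast-rich cells and 299 CPM in the others. The class was cut at a marker sum and not sorted, and all its cells come from the same 1 group, so no test was made.

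Medians of Jun, Junb, Maff and Fosl2 in the fibroblast-rich cells lay closer to those of the other cells, and those of Atf3 and Jund did not. Jun had medians of 117.8 CPM in fibroblast-rich cells and 157.98 CPM in the others, Junb 432 and 546 CPM, and Maff 45.2 and 44.99 CPM. Fosl2 had medians of 32.3 CPM in fibroblast-rich cells and 33.9 CPM in the others. Fosb went the other way, with 18.8 CPM in fibroblast-rich cells and 0 in the others, and with a UMI in 5 of 7 fibroblast-rich cells and 77 of the others. Atf3 had medians of 25.8 CPM in fibroblast-rich cells and 51.7 CPM in the others, and Jund 8.77 and 23.8 CPM. The YAP targets went both ways: Ankrd1 had a median of 7.48 CPM in fibroblast-rich cells against 266 CPM in the others, while Ccn2 had 643 against 95.1 CPM. Ccn2 was highest of all cells in the fibroblast-rich Acinar6, with 4149 CPM, and Ccn1 in the fibroblast-rich Acinar182, with 1593 CPM.

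One of the 7, Acinar85, goes against its class: its 1174 CPM of fibroblast markers were all Sparc, and it had 16746 CPM of epithelial markers against a class median of 673 CPM. It also held the class's highest Atf3, 556 CPM, and 2101 CPM of Ankrd1, on 16183 UMIs. Without it the medians of the fibroblast-rich cells were 104.7 CPM for Fos, 24.1 CPM for Atf3, 425 CPM for Ccn2, 3.74 CPM for Ankrd1, 13.8 CPM for Jund and 12.2 CPM for Fosb. The last 4 differed by more than 1.5 times from the values with it. Acinar52, the cell rich in enzymes, had 16.7 CPM of Fos, 77.8 CPM of Jun, 155.7 CPM of Junb and no Ankrd1.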

How the data were processed

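RNA was measured in 179 single organoid cells of 1 group. The authors deposited raw, whole-number counts, as one matrix of UMI counts and one of read counts over 32100 gene identifiers, 31985 of them with a symbol. Per the submitters' processing notes STAR, featureCounts, GRCm38 and mm10 were named; versions, UMI collapsing and the use of strand are not stated there. UMIs per 1000000 (CPM) were computed here from those counts per cell and pooled, with exact 95% Poisson intervals that cover counting error only.

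Cells were thinned at random to 40000 UMIs, which kept 161 and left out 18. Spearman's rho was taken over the 155 of them with under 1000 CPM of fibroblast and stellate markers, among genes averaging 1 thinned UMI or more. The correlation code was tested on simulated data. No doublet caller was run, since each sample is labelled as 1 cell, and no cell was removed for mitochondrial UMIs. Genes named are the AP-1 genes, the YAP targets, the 5 highest and 3 lowest genes by rho for AP-1 genes averaging 5 UMIs or more, and the 4 genes of each list with the highest rho to Fos. Others, such as Klf6 with Maff, Mafg, Cdh1, Epcam, Krt7 and the genes that overlap on the opposite strand, were named after their values were seen. Some results under this rule are not reported here. The members and lists were chosen with earlier results of these data known. Promoter sequences are from RefSeq. Software was Python 3.11.15, with versions 2.4.6 of numpy, 2.3.3 of pandas, 1.17.1 of scipy and 3.10.9 of matplotlib.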

Additional observations from a re-analysis of the deposited data

How the results depend on the processing

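Pairs at a rho of 0.3 or more numbered 8 of 36 between AP-1 genes and 2 of 27 with YAP targets. Between AP-1 genes they numbered 16 without thinning, 15 at 80000 UMIs, 14 and 16 with Pearson's r of log2(CPM + 10) and log2(CPM + 100), 16 with mitochondrially encoded genes out of the denominator, and 5 given the number of genes detected, a setting added after seeing the data. With YAP targets they numbered 4 without thinning, 7 at 80000 UMIs, 7 from read counts, 4 without mitochondrially encoded genes, 5 in cells numbered up to 96, 5 in the others, and 4 given the summed G2/M and S phase genes. The share of all pairs of genes rose too, from 1.15% to 4.18% without thinning, 2.68% at 80000 UMIs and 4.98% from read counts. With Pearson's r it was 12.2% and 5.21%, and without mitochondrially encoded genes 3.98%. In cells numbered up to 96 it was 2.13% and in the others 2.36%. The counts with YAP targets there rose along with it, while those between AP-1 genes were 9 and 8. From read counts 12 pairs between AP-1 genes reached 0.3. For the settings given the genes detected or the summed G2/M and S phase genes this share was not computed. In the main setting it was 5.6% among genes with a mean of at least 5 UMIs and 0.54% at 0.2 UMIs.

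Over the 13 settings fixed for the comparison, Fos with Jun (0.42 to 0.54), Fos with Junb (0.31 to 0.49), Fos with Fosb (0.31 to 0.46), Jun with Atf3 (0.36 to 0.45), Atf3 with Ankrd1 (0.34 to 0.53) and Atf3 with Ccn1 (0.30 to 0.44) stayed at 0.3 or more in each. Jun with Junb and Fosb with Atf3 did so in 12, Fosb with Jun in 10 and Fosl2 with Atf3 in 4. No pair at 0.3 or more changed sign in 14 settings, but 17 of the 140 values of such pairs fell under 0.3, and 78 values of other pairs reached it, those of Maff among them. From read counts 8 of 9 pooled levels left their counting interval. Cells are not replicates and 1 thinned UMI is 25 CPM, which limits Fosl1, Fosb and Jund most. No paired analysis was possible because the cells form 1 group.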
